A study of Mus musculus with 8 samples.

Results

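The genes described here form a set for the O-linked sugar chains of mucins, although Fut8 and St6gal1 act mainly on N-glycans. The set held 40 mouse genes, chosen by function with earlier results of these data known. Of these, 9 start the chain, 5 make its core, 6 extend it, 10 serve sialylation, 5 fucosylation and 5 sulfation. All 40 were found among the 18193 genes that the arrays measured under 1 symbol. Each gene was read through 1 probe set, the one with the largest SD over all arrays.

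The study asked how a family of mucus-associated genes in the gut symbiont Bacteroides thetaiotaomicron affects its host. Male C57BL/6 mice kept specific pathogen free were treated with metronidazole and ciprofloxacin, given bacteria by mouth at 8 weeks of age, and sampled at 12 weeks, 4 weeks after colonization. Living epithelial cells of the colon that carried EpCAM and lacked CD45 were sorted, and their RNA was read on Affymetrix arrays. The BTDMAFF group (n = 4 mice) carried the mutant from which the MAFF genes had been deleted, and the BTWT group (n = 4 mice) carried the parent strain, so that both groups shared the antibiotics and the colonization. No mouse without B. theta and no second mutant or complemented strain is among these arrays, and the mice kept other gut bacteria. The sources used here do not say how the mice were caged.

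A mucin O-glycan starts when a polypeptide GalNAc-transferase links N-acetylgalactosamine to a serine or threonine in the Golgi. Core enzymes then add galactose or N-acetylglucosamine, others lengthen and branch the chain, and sialic acid, fucose or sulfate usually ends it. In the colon these chains make up most of the mass of MUC2, the gel-forming mucin released by goblet cells, and B. theta can feed on them.

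Values are log2 intensities from which the median of the 8 arrays had been subtracted for each probe set. A value of 0 therefore marks the middle of the 8 mice, and neither the level of a gene nor its detection can be read from it. Differences are the BTDMAFF mean minus the BTWT mean on that log2 scale, tested with limma over all 45037 probe sets. No gene of the set passed after Benjamini-Hochberg adjustment (lowest limma adjusted p = 0.178), and neither did any of the 45037 probe sets (0%), of which 2295 (5.1%) had an unadjusted p under 0.05. The threshold used for single genes is therefore an unadjusted p under 0.05, which marks candidates only.

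At an unadjusted p under 0.05, 4 of the 40 genes were higher and 4 were lower in BTDMAFF, and 32 did not reach it. These 8 genes are 20% of the set, against 5.72% of all genes measured (3.37% higher and 2.35% lower). Since the genes were chosen with earlier results of these data known, the shares given here are descriptions and not independent support. Among the 65 further pathway genes described below the share was 4.62%. O-glycan genes varied more between mice than most genes (median SD 0.347 against 0.203), and among genes with an SD above the median of all probe sets the shares were 22.2% (8 of 36) for the set and 9.73% for the background (5.75% higher and 3.98% lower). The higher genes were Galnt11, Gcnt1, St3gal3 and St6galnac4, and the lower ones were Galnt7, Galnt10, C1galt1 and Fut8. In 4 of the 40 genes (10%) the BTDMAFF and BTWT mice did not overlap, 2 in each direction, against 3.14% of all genes (1.84% higher and 1.3% lower) and 5.32% of those with an SD above that median. Of the 40 differences 20 were above 0 and 20 below, with a median of -0.0037. Over all genes 33.2% were above 0 and the median was -0.0189. Over genes with an SD above the median of all probe sets the median difference was 0.0027.

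**Figure D1:**
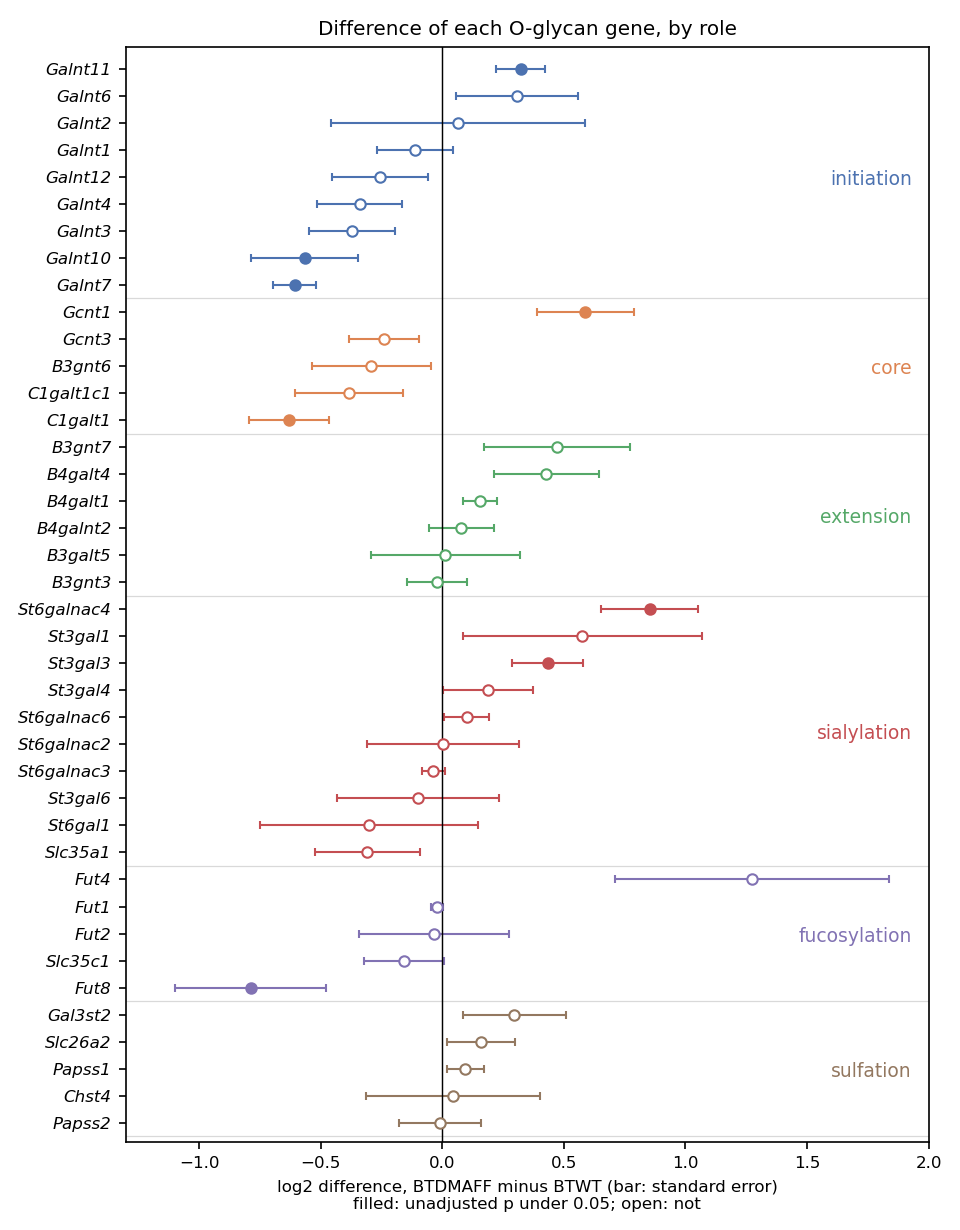
Log2 difference (BTDMAFF minus BTWT, horizontal axis) of each of the 40 O-glycan genes, grouped and coloured by role, with the standard error as a bar. Filled points mark the 8 genes at an unadjusted p under 0.05, and the differences run from -0.79 for Fut8 to 1.27 for Fut4, whose point is open.

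**Figure D2:**
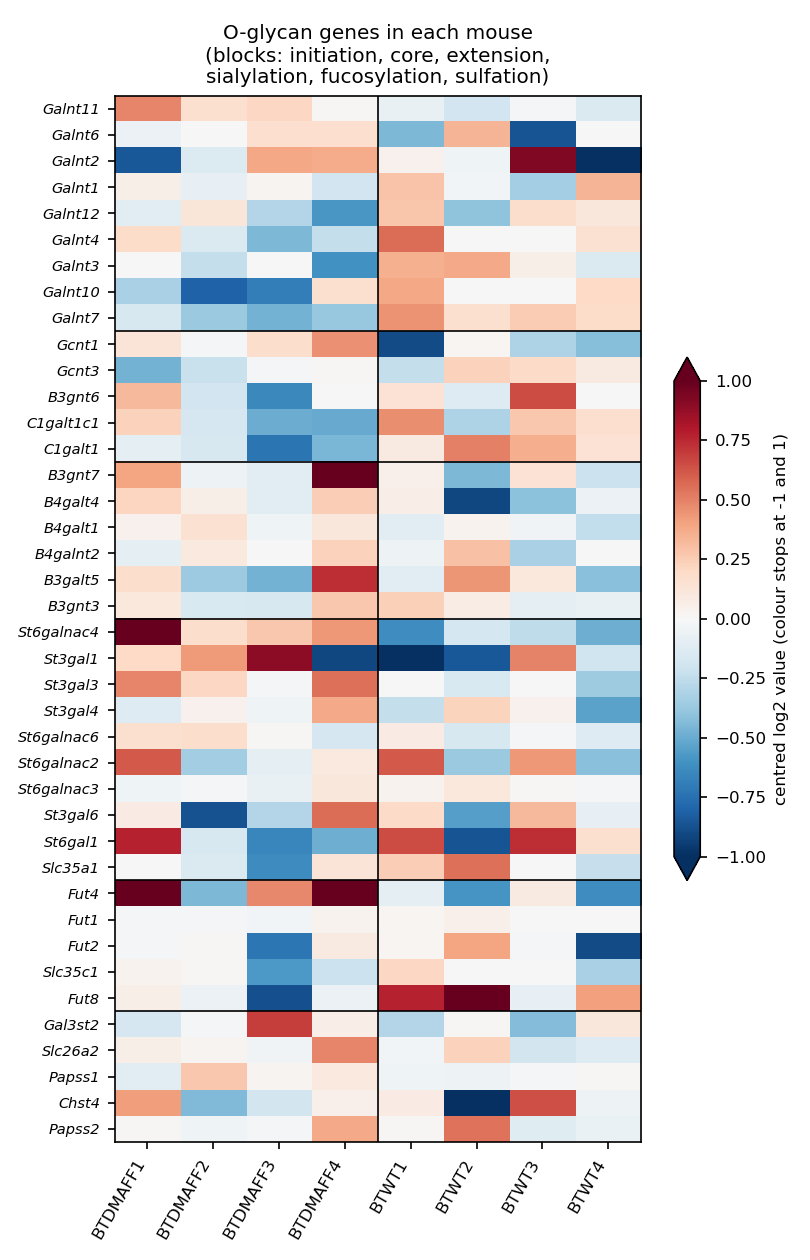
Centred log2 value of the 40 O-glycan genes (rows, in blocks by role and sorted by difference) in each BTDMAFF mouse (left) and each BTWT mouse (right). Colours stop at -1 and 1, and Galnt7, C1galt1, Galnt11 and St6galnac4 are the rows whose groups do not overlap.

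The promoters of the 4 genes whose groups did not overlap are shown so that the genes can be compared as regulatory units. Each is the 250 bases before the start of the RefSeq gene (GRCm38.p6), read along the gene's own strand. Capitals mark the GC box GGGCGG and the cyclic AMP response motif TGACGT, each searched on both strands, so that CCGCCC and ACGTCA are matches too.
Galnt7: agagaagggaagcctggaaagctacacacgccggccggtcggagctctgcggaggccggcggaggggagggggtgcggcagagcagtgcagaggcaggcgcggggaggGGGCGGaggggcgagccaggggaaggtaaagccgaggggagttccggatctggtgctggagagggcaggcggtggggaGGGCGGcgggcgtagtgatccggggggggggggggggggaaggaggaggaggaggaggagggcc
Galnt11: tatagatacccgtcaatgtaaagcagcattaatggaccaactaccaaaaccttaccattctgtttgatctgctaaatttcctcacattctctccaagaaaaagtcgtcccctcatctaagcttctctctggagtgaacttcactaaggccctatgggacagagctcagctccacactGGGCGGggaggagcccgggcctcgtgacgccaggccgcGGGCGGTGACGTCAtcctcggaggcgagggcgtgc
C1galt1: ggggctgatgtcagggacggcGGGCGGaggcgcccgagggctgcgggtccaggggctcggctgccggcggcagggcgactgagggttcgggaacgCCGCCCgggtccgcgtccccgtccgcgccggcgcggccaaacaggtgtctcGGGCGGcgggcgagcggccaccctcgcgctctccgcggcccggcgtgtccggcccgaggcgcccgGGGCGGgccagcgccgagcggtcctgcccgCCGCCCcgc
St6galnac4: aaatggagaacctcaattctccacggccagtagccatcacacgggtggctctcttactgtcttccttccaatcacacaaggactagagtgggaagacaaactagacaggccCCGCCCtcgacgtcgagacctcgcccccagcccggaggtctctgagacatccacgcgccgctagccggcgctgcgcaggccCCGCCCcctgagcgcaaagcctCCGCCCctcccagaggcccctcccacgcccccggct
The windows lie at chr8:57653056-57653305 on the minus strand (Galnt7) and, on the plus strand, at chr5:25222622-25222871 (Galnt11, the first of 2 starts listed), chr6:7844974-7845223 (C1galt1) and chr2:32586828-32587077 (St6galnac4). All 4 held the GC box, with 2 matches in Galnt7, 2 in Galnt11, 5 in C1galt1 and 3 in St6galnac4. Of 27025 RefSeq windows of this length 32.9% held one, as did 19 of the 29 O-glycan genes that had a window. TGACGT occurred in the Galnt11 window alone among the 29, as 2 overlapping matches that form one palindrome, and in 6.56% of all windows. The E-box CACGTG was in 2 of the 29 windows, none of the 4 shown, and in 6.05% of all. CCAAT was in 7 of the 29, once in the St6galnac4 window where it is left in lower case, and in 34.5% of all. The GC content was 73.6% in Galnt7, 54.0% in Galnt11, 82.8% in C1galt1 and 65.2% in St6galnac4, against a median of 64.4% over the 29 windows and 52.0% over all. The higher and the lower genes thus shared the GC box, and these matches are a description of letters, not of bound sites.

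Among the 9 enzymes that start the chain, 2 were lower, 1 was higher and 6 did not reach the threshold, with a median difference of -0.26. The lowest p of the whole set belonged to Galnt7, a transferase that prefers peptides already carrying a GalNAc. Galnt7 read -0.16, -0.37, -0.47 and -0.38 in the BTDMAFF mice, against 0.45, 0.16, 0.25 and 0.19 in the BTWT mice. Every BTDMAFF mouse lay below every BTWT mouse, and the mean was 1.52-fold lower in BTDMAFF (difference -0.61, SE 0.09). The limma p was 0.000216 unadjusted and 0.178 adjusted, and the two-sided exact permutation test gave 0.0286, the smallest p that 4 mice against 4 allow. Its other probe sets lay on the same side of 0, at -0.26 (SE 0.12) and -0.38 (SE 0.15), the second of them at an unadjusted p under 0.05.

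Galnt10, a close relative that also acts on partly glycosylated peptides, read -0.33, -0.81, -0.69 and 0.16 in the BTDMAFF mice, against 0.39, -0.003, 0.003 and 0.20 in the BTWT mice. The fourth BTDMAFF mouse lay among the BTWT mice, so the groups overlapped. The difference was -0.57 (SE 0.22, limma p = 0.0368 unadjusted and 0.828 adjusted; exact permutation p = 0.0857). It kept an unadjusted p under 0.05 in 3 of 8 fits that each left out 1 array, with a highest p of 0.0923 without BTDMAFF replicate 3, and its other probe sets stood at -0.31 and 0.06.

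Galnt11, which glycosylates receptors of the low-density lipoprotein receptor family, ran the other way. It read 0.49, 0.16, 0.21 and 0.0085 in the BTDMAFF mice, against -0.08, -0.19, -0.0085 and -0.15 in the BTWT mice. The groups did not overlap but nearly met, and the mean was 1.25-fold higher in BTDMAFF (difference 0.32, SE 0.10, limma p = 0.0156 unadjusted and 0.755 adjusted; exact permutation p = 0.0286). The second probe set of Galnt11 did not share this, with a difference of 0.0068 (SE 0.15), and the mean of both, 0.16, was no longer at an unadjusted p under 0.05.

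Of the other initiating enzymes, Galnt3 (-0.37, SE 0.18, exact permutation p = 0.114) and Galnt4 (-0.34, SE 0.17, exact permutation p = 0.143) came nearest to the threshold. Galnt4, like Galnt7, works on peptides that already hold GalNAc. Galnt12 had a difference of -0.26 (SE 0.20), Galnt1 of -0.11 (SE 0.16) and Galnt6 of 0.31 (SE 0.25). Galnt2, one of the broadly used first-acting enzymes, was among the most variable genes of the set. It read -0.84, -0.13, 0.38 and 0.37 in the BTDMAFF mice, against 0.04, -0.04, 0.93 and -1.41 in the BTWT mice. The spread lay within the groups, and the difference of 0.07 (SE 0.52) changed sign when BTDMAFF replicate 3, BTDMAFF replicate 4 or BTWT replicate 4 was left out. Averaged over the 9 enzymes, Galnt7 and Galnt10 included, the BTDMAFF mice lay between -0.17 and -0.085 and the BTWT mice between -0.079 and 0.20. These means did not overlap but left a narrow gap. The same means for the core, extension, sialylation, fucosylation and sulfation genes overlapped between the groups.

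**Figure D3:**
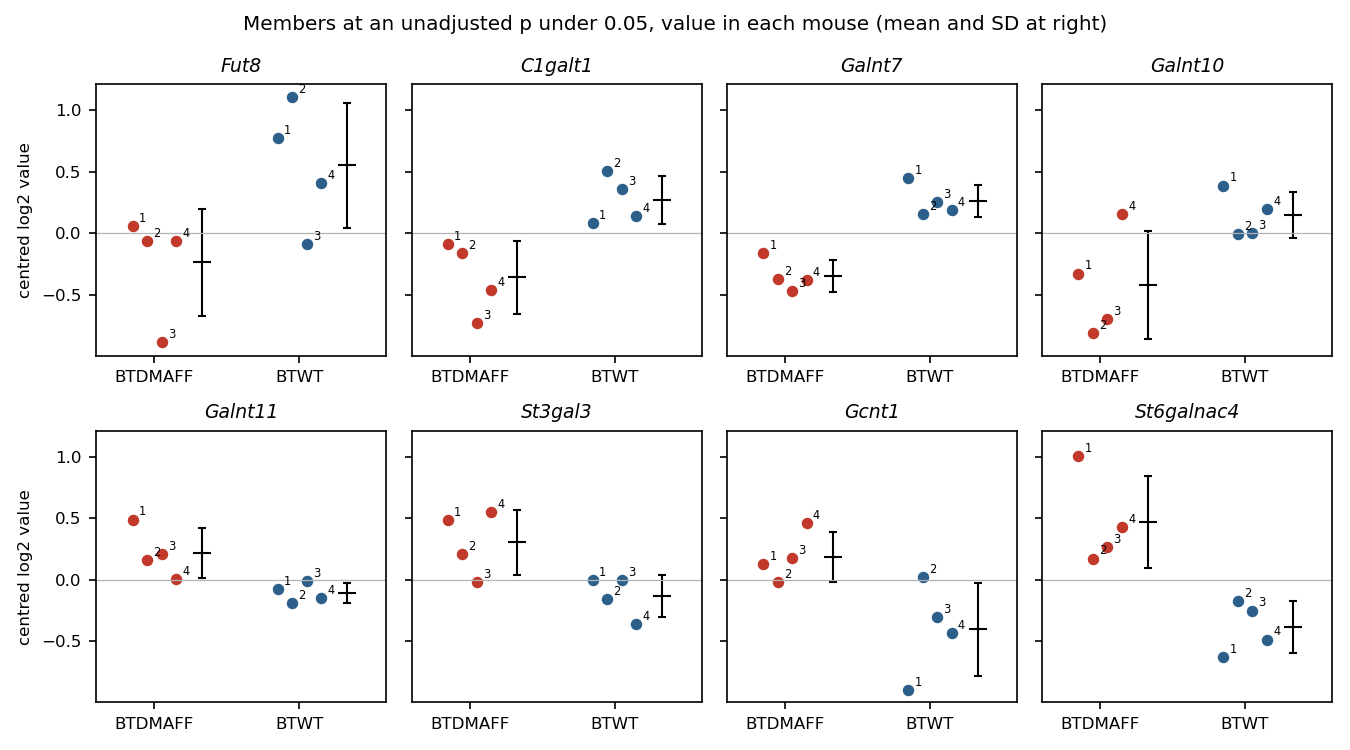
Centred log2 value in each mouse (points, numbered by replicate) of the 8 O-glycan genes at an unadjusted p under 0.05, BTDMAFF left and BTWT right in each panel, with the mean and SD of the 4 mice beside the points. Galnt7, Galnt11, C1galt1 and St6galnac4 do not overlap between the groups, while in Galnt10, Gcnt1, St3gal3 and Fut8 at least 1 mouse lies within the range of the other group.

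The 5 core genes held 1 lower and 1 higher gene, and their median difference was -0.29. C1galt1, the enzyme that adds galactose to GalNAc to make core 1, was lower. It read -0.09, -0.16, -0.73 and -0.46 in the BTDMAFF mice, against 0.09, 0.50, 0.36 and 0.14 in the BTWT mice. All BTDMAFF mice lay below 0 and all BTWT mice above it, and the mean was 1.55-fold lower in BTDMAFF (difference -0.63, SE 0.16, limma p = 0.00633 unadjusted and 0.57 adjusted; exact permutation p = 0.0286). A second probe set also separated the groups without overlap (-0.53, SE 0.13, limma adjusted p = 0.52), and the third had the same sign (-0.35, SE 0.17). C1galt1c1, the chaperone without which C1galt1 does not fold, had a difference of -0.38 (SE 0.22, exact permutation p = 0.171).

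Gcnt1, which adds the branch that turns core 1 into core 2, lay on the opposite side. It read 0.13, -0.02, 0.18 and 0.46 in the BTDMAFF mice, against -0.90, 0.02, -0.31 and -0.43 in the BTWT mice. The groups overlapped by 1 mouse each, at -0.02 and 0.02, and the mean was higher in BTDMAFF (difference 0.59, SE 0.20, limma p = 0.0214 unadjusted and 0.818 adjusted; exact permutation p = 0.0571). Without BTDMAFF replicate 4 the p was 0.0594. Its second probe set separated the groups without overlap, with a difference of 0.67 (SE 0.14, limma adjusted p = 0.404).

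The enzymes of the other cores did not reach the threshold. B3gnt6, the core 3 synthase typical of the colon, had a difference of -0.29 (SE 0.25), and Gcnt3, which makes core 2 and core 4 branches, had one of -0.24 (SE 0.14). Core 1 synthesis by C1galt1 and branching by Gcnt1 were thus the core steps at an unadjusted p under 0.05, in opposite directions.

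**Figure D4:**
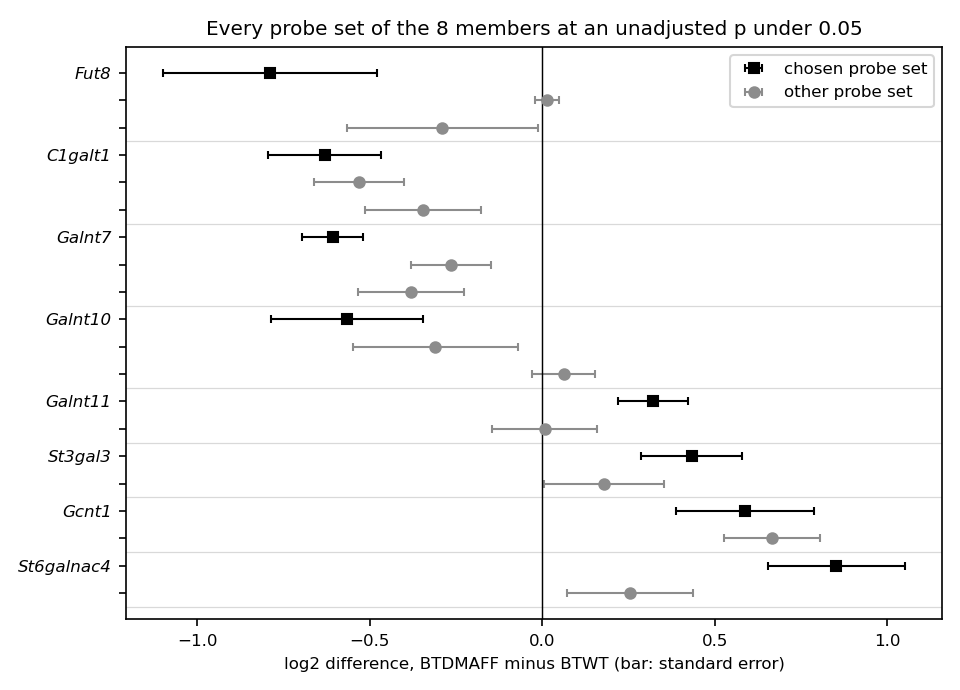
Log2 difference (BTDMAFF minus BTWT, horizontal axis, bar: standard error) in every probe set of the 8 O-glycan genes at an unadjusted p under 0.05. Squares are the probe sets used for the genes and circles the others, and all probe sets of C1galt1, Galnt7, Gcnt1, St3gal3 and St6galnac4 lie on 1 side of 0 (nearest 0.18 for St3gal3), while Galnt11 reaches 0.0068 and Fut8 and Galnt10 have probe sets on both sides.

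None of the 6 extension genes reached the threshold, with a median difference of 0.12. B4galt1, which adds galactose to N-acetylglucosamine, was the nearest (0.15, SE 0.07, exact permutation p = 0.114), followed by B4galt4 (0.43, SE 0.22, exact permutation p = 0.143), which prefers sulfated acceptors. B3gnt7, an enzyme of poly-N-acetyllactosamine chains, had a difference of 0.47 (SE 0.30), with 1.18 in the fourth BTDMAFF mouse and 0.40 or less in all other mice. B4galnt2, which makes the Sda antigen of the colon, had a difference of 0.08 (SE 0.13). The differences of B3galt5 and B3gnt3 were 0.01 (SE 0.31) and -0.02 (SE 0.12).

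Sialylation held 2 of the 4 higher genes and no lower one, out of 10, with a median difference of 0.05. The larger was St6galnac4, which adds sialic acid to the GalNAc of sialylated core 1. St6galnac4 read 1.01, 0.17, 0.27 and 0.43 in the BTDMAFF mice, against -0.62, -0.17, -0.25 and -0.49 in the BTWT mice. The groups did not overlap, and the mean was 1.81-fold higher in BTDMAFF (difference 0.85, SE 0.20, limma p = 0.00354 unadjusted and 0.476 adjusted; exact permutation p = 0.0286). The first BTDMAFF mouse was the highest, and leaving out any 1 array gave differences between 0.67 and 0.95, all at an unadjusted p under 0.05. The second probe set had a difference of 0.25 (SE 0.18).

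St3gal3, which caps galactose at the end of lactosamine chains with sialic acid, read 0.48, 0.21, -0.02 and 0.55 in the BTDMAFF mice, against 0.0016, -0.16, -0.0016 and -0.36 in the BTWT mice. Only the third BTDMAFF mouse lay within the BTWT range. The mean was 1.35-fold higher in BTDMAFF (difference 0.43, SE 0.15, limma p = 0.0207 unadjusted and 0.817 adjusted; exact permutation p = 0.0857). The p stayed under 0.05 in 5 of 8 fits that each left out 1 array and reached 0.0545 without BTDMAFF replicate 1. The second probe set had a difference of 0.18 (SE 0.17).

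St3gal1, which sialylates the galactose of core 1, varied widely within both groups. It read 0.20, 0.43, 0.90 and -0.91 in the BTDMAFF mice, against -1.15, -0.85, 0.50 and -0.20 in the BTWT mice. The difference was 0.58 (SE 0.49, exact permutation p = 0.343), and its other, less variable probe set gave 0.31 (SE 0.13), at an unadjusted p under 0.05. St6gal1, which sialylates mainly N-glycans, read 0.77, -0.16, -0.65 and -0.49 in the BTDMAFF mice, against 0.65, -0.86, 0.74 and 0.16 in the BTWT mice. Its groups overlapped across nearly their whole range (difference -0.30, SE 0.45, exact permutation p = 0.6).

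The other 6 sialylation genes did not reach the threshold either. Slc35a1, the carrier that brings activated sialic acid into the Golgi, had a difference of -0.31 (SE 0.22), and St3gal4 one of 0.19 (SE 0.19). St6galnac6 (0.10), St6galnac2 (0.0018), St6galnac3 (-0.04) and St3gal6 (-0.10) were all at p-values of 0.309 or more. St6galnac3 had an SD of 0.07 over the 8 mice.

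Of the 5 fucosylation genes 1 was lower, and their median difference was -0.04. That gene was Fut8, which fucosylates the core of N-glycans and so stands outside the O-glycan chain itself. Fut8 read 0.06, -0.06, -0.88 and -0.06 in the BTDMAFF mice, against 0.77, 1.11, -0.08 and 0.41 in the BTWT mice. The third BTWT mouse lay within the BTDMAFF range, and the third BTDMAFF mouse stood far below its own group. The mean was 1.73-fold lower in BTDMAFF (difference -0.79, SE 0.31, limma p = 0.0386 unadjusted and 0.828 adjusted; exact permutation p = 0.114). It kept an unadjusted p under 0.05 in 2 of 8 fits that each left out 1 array, with 0.0922 without BTWT replicate 2, and its other probe sets stood at 0.01 and -0.29.

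Fut4, which makes Lewis x type structures, had the largest difference of the set without reaching the threshold. It read 1.79, -0.45, 0.48 and 2.05 in the BTDMAFF mice, against -0.09, -0.59, 0.09 and -0.62 in the BTWT mice. Both the first and the fourth BTDMAFF mouse were far above all BTWT mice, and the second lay among them. The difference was 1.27 (SE 0.56, limma p = 0.0585 unadjusted and 0.828 adjusted; exact permutation p = 0.0857). Without BTDMAFF replicate 2 it was 1.74, at an unadjusted p under 0.05, and the other probe set gave 0.36 (SE 0.42).

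Fut2, the enzyme behind most terminal fucose of the colonic epithelium, had a difference of -0.04 (SE 0.31), while its other, less variable probe set gave -0.36 (SE 0.16), short of the threshold. The probe set used was lowest in the third BTDMAFF mouse (-0.73) and the fourth BTWT mouse (-0.90). Fut1 had an SD of 0.03 over the 8 mice and lay within 0.05 of the median of every array, so it carried no measurable contrast. Slc35c1, the Golgi carrier for activated fucose, had a difference of -0.16 (SE 0.17).

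None of the 5 sulfation genes reached the threshold, with a median difference of 0.10. Gal3st2, which sulfates galactose, had a difference of 0.30 (SE 0.21), and the sulfate carrier Slc26a2 one of 0.16 (SE 0.14). Papss1 (0.10, SE 0.07) and Papss2 (-0.0093, SE 0.17) make the activated sulfate that these enzymes use. Chst4, which sulfates N-acetylglucosamine, had a difference of 0.04 (SE 0.36). Sulfation was thus the group with the smallest range of differences, from -0.0093 to 0.30.

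The 40 genes had 87 probe sets, and 27 genes had more than 1. Of the 47 probe sets not used for a gene, 38 had a difference of the same sign as the one used. Of these 47, 4 reached an unadjusted p under 0.05, in Galnt7, C1galt1, Gcnt1 and St3gal1, each with the same sign. Over all probe sets the share was 5.1%. Probe sets of a gene read the same RNA samples, so they are not independent support.

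A further 65 genes of the same pathway were measured. By the same threshold 2 lay higher in BTDMAFF and 1 lay lower (4.62%, against 5.72% of all genes). Of the 65, 17 lay within 0.05 of the median of every array. Among those with an SD above the median of all probe sets the share was 7.5% (3 of 40), against 9.73% of such genes. In 4 of the 65 (6.15%) the groups did not overlap, 3 higher and 1 lower, against 3.14% of all genes. Among these 4 was Fcsk (0.37, SE 0.17, limma p = 0.0666 unadjusted, exact permutation p = 0.0286), which missed the threshold. Fpgt, which returns salvaged fucose to its activated form, read 0.08, 0.14, 0.09 and 0.04 in the BTDMAFF mice, against -0.04, -0.32, -0.59 and -0.36 in the BTWT mice. The groups did not overlap (difference 0.42, SE 0.11, limma p = 0.0061 unadjusted and 0.57 adjusted; exact permutation p = 0.0286). Ugp2, which makes UDP-glucose, had a difference of 0.93 (SE 0.23, exact permutation p = 0.0286), but its other 4 probe sets lay between -0.08 and 0.20. Gfpt1, the enzyme that commits sugar to the hexosamine pathway and so to GalNAc and GlcNAc, was the lower one. Gfpt1 read -0.86, -0.05, -1.06 and -0.65 in the BTDMAFF mice, against 0.05, 1.51, 0.49 and 0.13 in the BTWT mice. All BTDMAFF mice lay below all BTWT mice (difference -1.20, SE 0.37, limma p = 0.0145 unadjusted and 0.733 adjusted; exact permutation p = 0.0286), and its other 5 probe sets were below 0 as well, from -0.51 to -0.17.

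The cells that use these enzymes were read through marker lists. In sorted but mixed epithelium, fewer cells of a type and less RNA per cell cannot be told apart. Of 11 goblet cell genes 2 were higher, Fcgbp (0.67, SE 0.14, exact permutation p = 0.0286) and Clca1 (0.90, SE 0.26, exact p = 0.0286), and 1 was lower, Agr2 (-0.55, SE 0.19, exact p = 0.0571), the folding factor that mucin assembly needs. Muc2 had a difference of 0.15 (SE 0.07, exact permutation p = 0.114). The mean of the goblet list lay between -0.12 and 0.27 in BTDMAFF mice and between -0.26 and 0.19 in BTWT mice, which overlapped. None of 5 transmembrane mucins reached the threshold, and their list mean lay between -0.09 and 0.11 in BTDMAFF mice and between 0.0046 and 0.15 in BTWT mice.

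Dividing cell genes were the one marker list whose mean did not overlap between the groups. All 5 measured were lower in BTDMAFF at an unadjusted p under 0.05, among them Birc5 (-1.15, SE 0.22), Top2a (-1.02, SE 0.27) and Cdk1 (-1.08, SE 0.38), and none passed after adjustment. Their mean lay between -0.87 and -0.25 in BTDMAFF mice and between 0.03 and 0.93 in BTWT mice. This list ran in the same direction as Galnt7 and C1galt1, and its part in the O-glycan differences was not tested.

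Of 9 surface colonocyte genes, Slc26a3 (0.48, SE 0.08) and Krt20 (0.32, SE 0.10) were higher and Ceacam20 (-0.38, SE 0.16) was lower, and the list mean lay between -0.13 and 0.19 in BTDMAFF mice and between -0.32 and 0.13 in BTWT mice. None of 7 crypt base genes reached the threshold (list means -0.41 to 0.47 in BTDMAFF and -0.13 to 0.79 in BTWT). Among 5 enteroendocrine genes Gcg was lower (-1.10, SE 0.42; list means -0.45 to 0.02 in BTDMAFF and -0.53 to 0.45 in BTWT). Among 5 tuft cell genes Trpm5 was lower (-0.46, SE 0.18; list means -0.26 to 0.03 in BTDMAFF and -0.05 to 0.35 in BTWT). The 6 leukocyte genes, Ptprc (CD45) included, were flat, with means of -0.016 to 0.048 in BTDMAFF and -0.011 to 0.034 in BTWT, and 4 of them lay within 0.05 of the median of every array. None of 5 stromal genes reached the threshold (list means -0.05 to 0.84 in BTDMAFF and -0.36 to 0.16 in BTWT). Since the values are centred, no marker can be called present or absent.

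The arrays themselves were not alike. BTDMAFF replicate 4 and BTWT replicate 2 stood apart on the first principal component (29.4% of the variance), at 47.02 and 58.08, while the other 6 arrays lay between -36.78 and -6.39. Without both arrays, Galnt7, Galnt10, Galnt11, Gcnt1 and St6galnac4 stayed at an unadjusted p under 0.05 while C1galt1 (-0.52), St3gal3 (0.34) and Fut8 (-0.66) kept their sign but missed it.

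**Figure D5:**
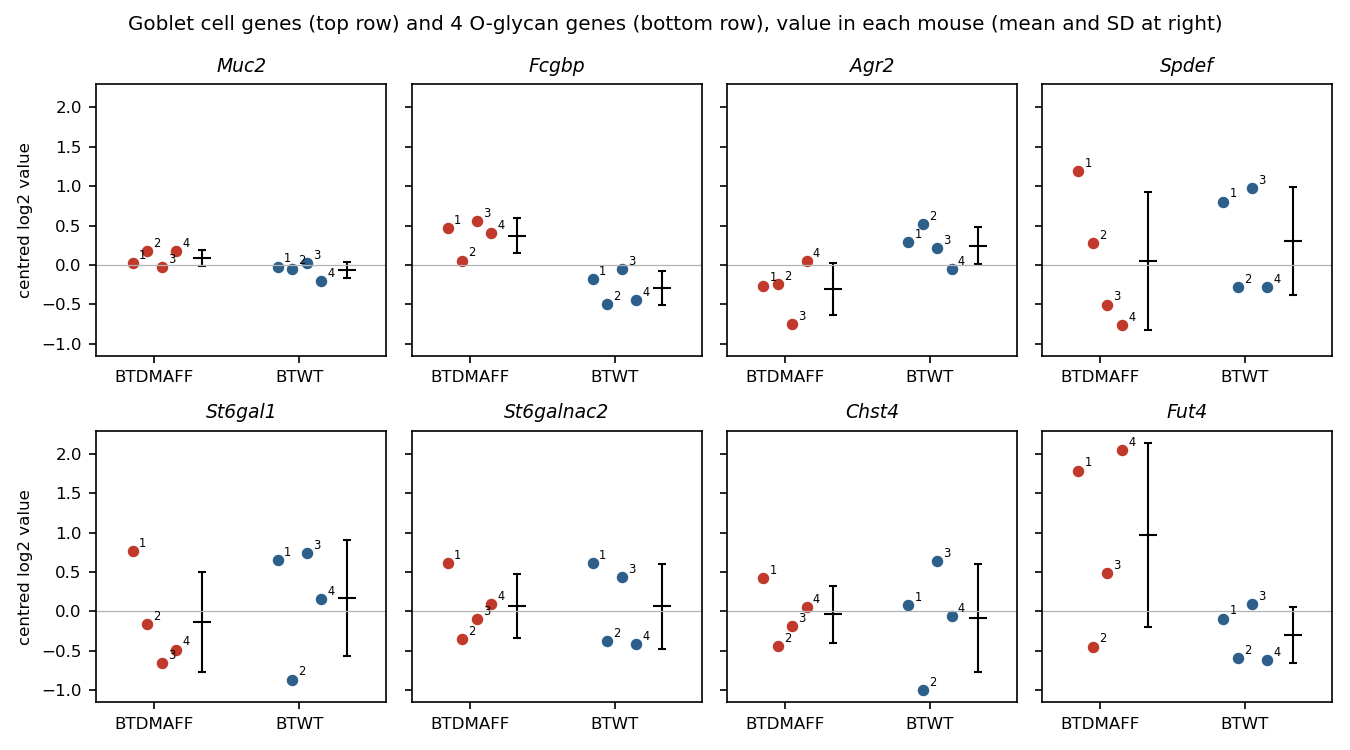
Centred log2 value in each mouse (points, numbered by replicate) of 4 goblet cell genes (top) and 4 O-glycan genes (bottom), BTDMAFF left and BTWT right, with the mean and SD of the 4 mice beside the points. Fcgbp separates the groups, while Spdef, St6gal1, St6galnac2 and Chst4 each have their 3 highest values in the first BTDMAFF mouse and the first and the third BTWT mouse.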

How the data were processed

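RNA of sorted colonic epithelial cells from 8 mice was amplified and hybridised to 1 Affymetrix mouse genome array each. The authors deposited log2 values for 45101 probe sets, each probe set centred on its median over the 8 arrays. Affymetrix Expression Console is named in the submitters' processing notes and GeneSpring in the study's methods, while the sources used here do not state the background correction or the normalization. The number of arrays limits the precision.

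After removal of 64 Affymetrix controls, 45037 probe sets entered a limma model (version 3.58.1, under R 4.3.3, with lmFit, eBayes, two-sided tests and no covariate), with Benjamini-Hochberg adjustment over all of them. A single gene was also tested by an exact permutation test over the 70 splits of the arrays. Probe sets were named through the platform annotation: 34945 had 1 gene, 932 had several and 9160 had none, and only the first were named. Where several probe sets named a gene, the most variable one was used, whatever the group. Values of every mouse are given for O-glycan genes at an unadjusted p under 0.05 or without overlap and for the 4 with the largest SD. Pathway and marker genes are named at an unadjusted p under 0.05, at most 8 and at most 3 a list. Muc2, Fcsk and the genes shared by 3 mice were chosen after their values were seen. The genes and lists were chosen with earlier results of these data known. Under 1 symbol, 7 of 72 further pathway genes and the markers Ms4a12, Ephb2 and Ccnb1 were not found. The fit was tested on simulated data. The alternatives were other normalizations, the mean of all probe sets, an SD filter, leaving out arrays, a replicate block, array weights, a robust prior and the methods' unpaired test. The mice of a group are separate animals according to the study.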

Additional observations from a re-analysis of the deposited data

Results flagged for a closer look

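In 3 of 86 groups of 4 mice examined, 1 mouse stood far from the other 3 relative to the range of its group. Chance alone flags about 1 in 20 such groups. Fut8 was -0.88 in BTDMAFF replicate 3, with the other BTDMAFF mice between -0.06 and 0.06. Fut2 was -0.73 in the same mouse, with the others between -0.01 and 0.09. Papss2 was 0.38 in BTDMAFF replicate 4, with the others between -0.04 and 0.01.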

How the results depend on the processing

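The 8 O-glycan genes at an unadjusted p under 0.05 kept their sign under every alternative run, and Galnt7 and St6galnac4 kept an unadjusted p under 0.05 in all of them. With 4 higher and 4 lower as reported, the lower count was 2 without both arrays that stood apart and 2 by the methods' unpaired test. With array weights 10 genes were higher and 8 lower, and 1 (Galnt7, adjusted p = 0.0225) passed after adjustment. That fit rested mostly on BTDMAFF replicate 2 and BTWT replicate 3 (weights 4.36 and 4.68, all others 1.33 or less). Counts under the alternatives, here and for the further pathway genes, are given without the share over all genes in the same fit. A change in such a count therefore cannot be read as a result about these lists. Leaving out 1 array gave 2 to 6 higher genes (2 without BTDMAFF replicate 4) and 2 to 5 lower ones (2 without BTDMAFF replicate 2 or 3), 0 to 0 after adjustment, and medians of -0.069 to 0.047. The Galnt2 difference was 0.07 as reported, -0.37 to 0.42 when 1 array was left out, -0.08 without BTDMAFF replicate 3, -0.08 without BTDMAFF replicate 4, -0.37 without BTWT replicate 4, -0.052 without both arrays that stood apart and -0.60 with array weights. Fut4 reached an unadjusted p under 0.05 without BTDMAFF replicate 2 and with the SD filter (limma adjusted p = 0.67 and 0.529). Its difference with array weights was 0.23. Fut8 had a difference of -0.33 with array weights, and Galnt11 missed an unadjusted p under 0.05 with the SD filter. Of the further pathway genes, 2 higher and 1 lower as reported, 4 were higher under quantile normalization, 4 higher and 2 lower with the mean of all probe sets and with the SD filter, 4 and 4 without both arrays that stood apart, and 5 and 8 with array weights. Leaving out 1 array gave 2 to 5 higher (5 without BTDMAFF replicate 1, 4 without BTDMAFF replicate 2 or BTWT replicate 1 or 2) and 1 to 2 lower (2 without BTDMAFF replicate 1, 3 or 4), and 0 after adjustment. The causes of these shifts were not tested. The labels do not say whether the replicate numbers pair the mice. After removal of the group means, the correlations of same-numbered arrays were 0.392, -0.04, 0.033 and -0.266. Of 4 BTDMAFF arrays 1 correlated best with its own number, and these values cannot decide whether mice were paired. With the replicate block, 7 O-glycan genes were lower and 2 further pathway genes were lower.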

Other observations

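Some O-glycan genes varied between mice of both groups alike, seen after the values were examined and not tested. St6galnac2 read 0.62, -0.35, -0.10 and 0.10 in the BTDMAFF mice, against 0.61, -0.37, 0.43 and -0.41 in the BTWT mice. Chst4 read 0.42, -0.44, -0.18 and 0.05 in the BTDMAFF mice, against 0.08, -0.998, 0.64 and -0.05 in the BTWT mice. Of the 40 O-glycan genes 5 (these, St6gal1, C1galt1c1 and B3gnt6) had their 3 highest values in BTDMAFF replicate 1, BTWT replicate 1 and BTWT replicate 3. The share over all genes was not counted, so whether this is particular to the lists named here is not known. Spdef, a transcription factor of goblet cell maturation, read 1.19, 0.28, -0.50 and -0.77 in the BTDMAFF mice, against 0.81, -0.28, 0.98 and -0.29 in the BTWT mice, with the same 3 mice highest. Spink4 shared this, but none of the other 9 goblet cell genes, Muc2, Fcgbp and Agr2 among them. The same 3 mice were highest for 4 of 7 crypt base genes (Ascl2, Axin2, Sox9 and Reg4), whose list mean was 0.47, 0.79 and 0.41 in those mice and -0.03 or less in each of the others, and for the enteroendocrine gene Neurod1. These mice belong to both groups.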
